A study of Mus musculus with 10 samples.

Results

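Serpins are the largest family of protease inhibitors in vertebrates. They were examined here as a gene family in lung of mice kept in intermittent hypoxia, together with 4 genes that work beside them. Members were all probe sets whose array annotation gave exactly 1 symbol and whose symbol was a serpin of clades A to I, plus Plau, Plat, Plaur and Slpi. This gave 34 genes of 12393 measured, 30 of them serpins, on 44 of 22626 probe sets. Where a gene had several probe sets, the one with the greatest average across the 10 arrays was read, and the other ones served as a check. The clades held 8 genes in A, 14 in B, 1 each in C, D, G and H, and 2 each in F and I. No probe set with a single clade E symbol was found under the rule, so that clade was not analysed here.

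The study measured whole lung RNA from male C57BL/6 mice aged 6 to 8 weeks on the Affymetrix Mouse Genome 430A 2.0 array. One group of 5 animals was kept in normoxia and the other group of 5 in intermittent hypoxia, with 1 array per animal. The title of the study names chronic exposure and the alveolar surface area of the adult lung as its subject. The labels name no genetic change in either group, and the sources used here give no oxygen level, cycle length or number of days. The arrays are called N1 to N5 for normoxia and H1 to H5 for intermittent hypoxia, and values are log2 levels in which a difference of 1 is a doubling.

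A serpin works as bait. A protease cuts an exposed loop of the serpin, the loop snaps into the body of the molecule, and the protease is carried along and held in a distorted, inactive form. In the lung the best known pair is alpha-1 antitrypsin of clade A and neutrophil elastase, whose imbalance damages alveolar walls. Clade B serpins mostly stay inside cells and guard them against leaked or internal proteases, clades C to G act mainly in plasma on coagulation, plasmin and complement, and a few serpins do not inhibit proteases at all. Plau and Plat encode the activators that turn plasminogen into plasmin, Plaur encodes the receptor that holds Plau at the cell surface, and Slpi encodes a small airway inhibitor of neutrophil elastase that is no serpin.

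The tissue label matched its markers, since the mean level of 8 genes of alveolar type 2 cells was 13.38 to 13.69 on the 10 arrays and that of 8 club and airway secretory cell genes was 12.14 to 12.83. No array was identical to another. N2, N3 and N4 stood apart by a narrower spread over all probe sets (SD 1.89 to 1.93) than the other 7 arrays (1.99 to 2.05). For the genes and lists that turned on these 3 arrays, the difference without them (the hypoxia mean minus that of N1 and N5) is also given. In whole lung, fewer cells of a type and less RNA per cell cannot be told apart.

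Of the 34 genes, 3 rose, 2 fell and 29 did not pass the test, which was limma's moderated test at a threshold of 0.05, the p-values being adjusted by Benjamini and Hochberg's method across the whole array. Serpinh1, Serpinb1a and Serpinb9 rose, and Serpinb9b and Serpinb2 fell. Among all genes 8.93% rose and 3.60% fell, so the members' 8.82% and 5.88% were near the background. Of all changed probe sets 71.2% were higher, and 59.1% after quantile normalization. Two-sided unadjusted p was below 0.05 for 12 members. The 5 normoxia and 5 hypoxia values did not overlap for 2 members that were higher and 1 that was lower, against a background of 5.76% and 2.85% of all genes. The median log2 fold change was -0.08 over the members and 0.01 over all genes, with 22 of 34 members and 46.8% of all genes below 0. Without N2, N3 and N4 both medians were near 0, at -0.0011 and 0.0026. Of the members, 21 had a mean level under the median of all probe sets, and 16 of those had a negative fold change. That is 76.2%, and over all genes under that level it was 67.5%. Of the 13 members above it 46.2% were negative, and of all genes above it 32%.

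**Figure D1:**
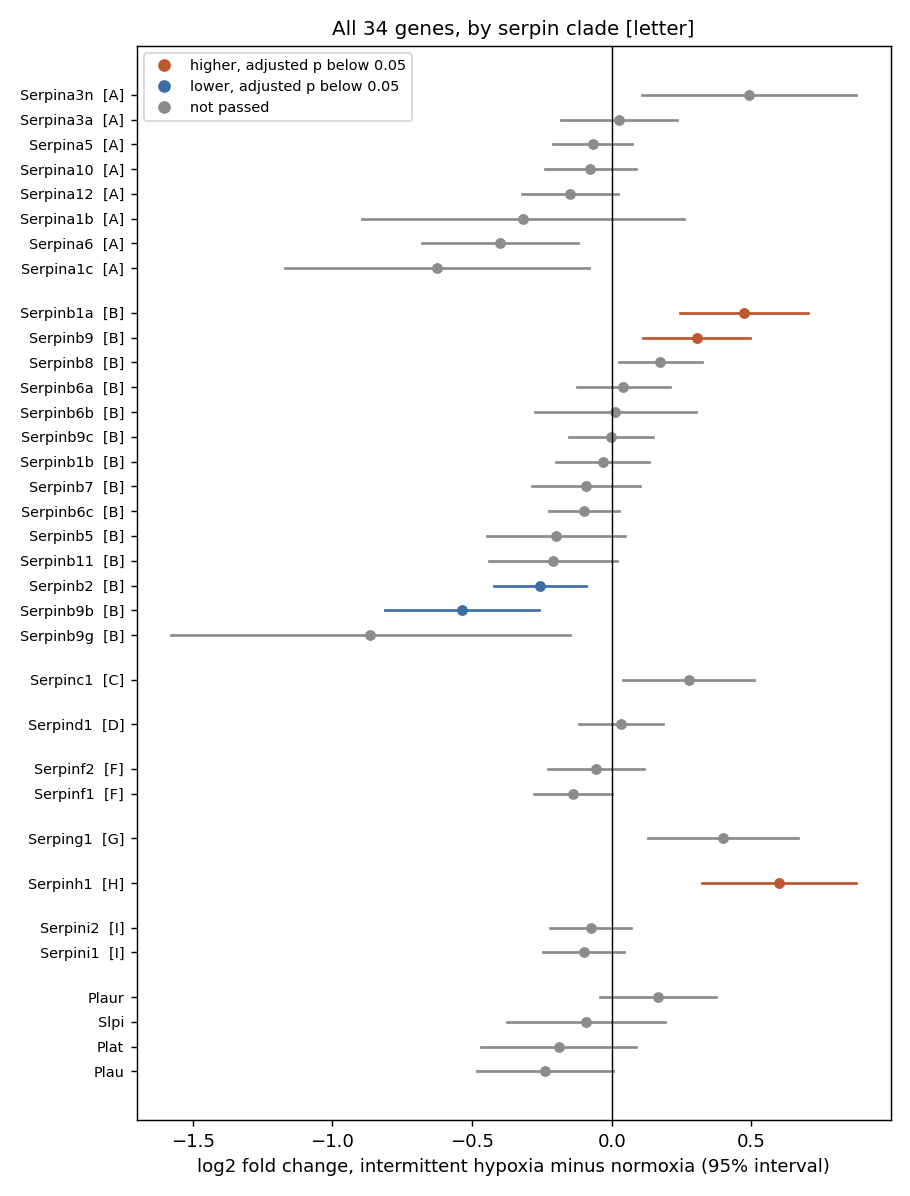
Log2 fold change (hypoxia minus normoxia, horizontal axis) with its 95% interval for each of the 34 genes (vertical axis), grouped by clade. The 3 red genes rose, the 2 blue genes fell, and the widest intervals belong to Serpinb9g, Serpina1c and Serpina1b.

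In clade A, the extracellular serpins of the antitrypsin type, none of 8 genes passed limma's adjusted test, 3 had an unadjusted p below 0.05, and the SAM procedure named in the study's design text called 1 higher and 2 lower. The median log2 fold change was -0.11. Serpina3n, an acute-phase inhibitor related to human antichymotrypsin, read 9.56, 9.05, 9.30, 9.14 and 9.07 on N1 to N5 and 9.75, 10.06, 9.96, 9.83 and 8.97 on H1 to H5. H1 to H4 lay above every normoxia array and H5 lay below all of them. The difference was 0.49 (SE 0.18, n = 5 per group) with an adjusted p of 0.0822 by limma. Without H5 it was 0.68 with an adjusted p of 0.00550, and without N1 it was 0.58 with an adjusted p of 0.0496. Without any other single array the adjusted p by limma was 0.105 to 0.176. After quantile normalization the difference was 0.38 with an adjusted p of 0.156, and without N2, N3 and N4 together it was 0.40.

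Serpina6 encodes corticosteroid-binding globulin, a serpin that carries steroid hormone in plasma and inhibits no protease. Its levels were 6.64, 7.13, 7.25, 7.37 and 6.91 in normoxia and 6.49, 6.71, 6.47, 6.75 and 6.87 in hypoxia. N2, N3 and N4 were the highest arrays, and N1 fell inside the hypoxia range. The difference was -0.40 (SE 0.13) with an adjusted p of 0.0599 by limma. Leaving out N1, N5 or H5 took it past the threshold (adjusted p 0.0132, 0.0417 and 0.0460), while without N2, N3 and N4 together it was -0.11.

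The mouse has several near-identical copies of the alpha-1 antitrypsin gene, so the probe sets of Serpina1b and Serpina1c cannot be assigned to 1 copy with certainty. Serpina1c had the highest mean level of the clade's probe sets. It read 9.46, 9.93, 10.53, 10.48 and 9.09 in normoxia and 9.36, 9.15, 8.78, 9.57 and 9.49 in hypoxia. N2, N3 and N4 were above all other arrays, and N1 and N5 lay inside the hypoxia range. The difference was -0.62 (SE 0.25) with an adjusted p of 0.113 by limma, and without N2, N3 and N4 it was -0.0024. Leaving out N5 alone gave -0.83 and an adjusted p of 0.0213.

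Serpina1b, chosen for mention after its values were seen, was highest on N3 and N4, with a mean of 9.01 on N2 to N4 and 8.03 on N1 and N5. Its difference was -0.32 (SE 0.27), its second probe set gave -0.42 (SE 0.28), and neither passed. A probe set shared by Serpina1d and Serpina1a, which is no member because it carries 2 symbols, gave 0.33 (SE 0.11, adjusted p 0.0694 by limma). Its mean level was only 4.46, against 8.46 for Serpina1b and 9.59 for Serpina1c. Another low probe set, shared by Serpina1e, Serpina1c and Serpina1b, gave -0.05 (SE 0.06) at a mean level of 4.42. The remaining clade A genes moved little. Serpina12, Serpina10, Serpina5 and Serpina3a had log2 fold changes from -0.15 to 0.03, with adjusted p from 0.221 to 0.875.

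Clade B held 4 of the 5 genes that passed, 2 in each direction among 14, and 9 of the 14 fold changes were negative. Serpinb1a, an inhibitor of neutrophil elastase, cathepsin G and proteinase 3 that is abundant in myeloid cells, rose 1.39-fold. It read 7.25, 7.37, 6.87, 7.12 and 7.13 on N1 to N5 and 7.57, 7.72, 7.54, 7.90 and 7.39 on H1 to H5. The lowest hypoxia array, H5, was just above the highest normoxia array, N2, so the groups did not overlap. The mean was 7.15 ± 0.18 (SD, n = 5) in normoxia and 7.62 ± 0.19 in hypoxia, a difference of 0.47 (SE 0.11) with an adjusted p of 0.0168 by limma. It passed with each array left out in turn, with adjusted p up to 0.0473. The second Serpinb1a probe set had a mean level of 5.42, against 7.39 for the first. It gave 0.08 (SE 0.08, adjusted p 0.535), and the mean of both gave 0.27. Serpinb1b, a close relative of Serpinb1a, gave -0.03 (adjusted p 0.799).

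Serpinb1a is known from neutrophils and other myeloid cells. Of 11 neutrophil marker genes 0 rose and 2 fell, with list means of 8.11 to 9.09 in normoxia and 8.19 to 8.63 in hypoxia. The median log2 fold change of this list was -0.25, or -0.10 without N2, N3 and N4. Of 9 macrophage and monocyte markers 4 rose, Cd68 by 0.74, and only H5, at a list mean of 8.47, lay inside the normoxia range of 8.36 to 8.50. The part of these cells in the Serpinb1a result was not tested.

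Serpinb9 and Serpinb9b lie next to each other on chromosome 13, on the same strand and with 0 coding genes between them in the RefSeq annotation, and they moved in opposite directions. Serpinb9 encodes the inhibitor of granzyme B that protects cytotoxic lymphocytes and other cells from that protease. Serpinb9b is one of its mouse copies. The stretch before the first base of each gene is shown because neighbouring copies with opposite changes can be set side by side (RefSeq, GRCm38.p6, plus strand, 250 bases each, chr13:33004291-33004540 for Serpinb9 and chr13:33027164-33027413 for Serpinb9b). Motifs were searched on both strands. These were the hypoxia response core ACGTG, the heat shock element GAANNTTC, the TATA box TATAAA, the CCAAT box and the GC box GGGCGG, and none of them contains another. None of the 5 was present in either stretch, so no letter is in capitals.
Serpinb9 promoter: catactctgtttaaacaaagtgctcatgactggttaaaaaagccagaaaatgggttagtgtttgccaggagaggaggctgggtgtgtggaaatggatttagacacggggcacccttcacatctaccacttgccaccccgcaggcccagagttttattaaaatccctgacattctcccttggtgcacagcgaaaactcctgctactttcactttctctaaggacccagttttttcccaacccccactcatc
Serpinb9b promoter: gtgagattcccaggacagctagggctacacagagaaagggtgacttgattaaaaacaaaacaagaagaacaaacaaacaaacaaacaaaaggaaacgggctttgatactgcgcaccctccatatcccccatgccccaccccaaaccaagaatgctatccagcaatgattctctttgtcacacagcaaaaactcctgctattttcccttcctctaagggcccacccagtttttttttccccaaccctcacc
An alignment of the pair had identical bases in 154 of 274 columns (56.2%), and the other 5 pairs among the Serpinb2, Serpinb9, Serpinb9b and Serpinh1 stretches had 36.9% to 43.1%.

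Serpinb9 read 10.56, 10.46, 10.20, 10.37 and 10.28 in normoxia and 10.68, 10.90, 10.65, 10.67 and 10.47 in hypoxia. H1 to H4 were above every normoxia array and H5 was below N1, so the groups overlapped by that 1 array. The difference was 0.30 (SE 0.09), 1.23-fold, with an adjusted p of 0.0428 by limma. This call was close to the threshold. It was lost when any 1 of N2 to N5 or H1 to H4 was left out, with adjusted p from 0.0530 to 0.109, and it was kept without N1 or H5. Quantile normalization of the arrays reduced it to 0.14 with an adjusted p of 0.229.

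Serpinb9b read 7.89, 8.11, 8.48, 8.39 and 7.80 in normoxia and 7.66, 7.36, 7.55, 7.71 and 7.73 in hypoxia. Every hypoxia array lay below every normoxia array, with N3 and N4 highest. The mean fell from 8.14 ± 0.30 to 7.60 ± 0.15, a log2 fold change of -0.53 (SE 0.13) and an adjusted p of 0.0210 by limma. The call was lost without N3, N4 or H2 (adjusted p 0.0507, 0.0605 and 0.0522). Without N2, N3 and N4 together the difference was -0.25 with an adjusted p of 0.459.

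Serpinb9 and its copies resemble each other in sequence, so their probe sets may take signal from one another. Serpinb9g, named here after its values were seen, had the most negative fold change of the 34 genes, -0.86 (SE 0.33), and the adjusted p was 0.0986. It read 5.66, 6.27, 7.26, 7.08 and 5.28 in normoxia and 5.50, 5.06, 5.12, 5.76 and 5.80 in hypoxia. N2, N3 and N4 were above all other arrays, while N1 and N5 lay among the hypoxia values. Without those 3 arrays the difference was -0.03, and without N5 alone it was -1.12 with an adjusted p of 0.0200. A probe set that carries the symbols of Serpinb9h, Serpinb9g, Serpinb9e and Serpinb9f, which is no member, gave -0.42 (SE 0.13, adjusted p 0.0491). Serpinb9c was level at -0.0023.

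Of 9 T and NK cell markers, the cells in which Serpinb9 is best known, 3 rose and 0 fell. The list means were 7.18 to 7.38 in normoxia and 7.28 to 7.52 in hypoxia. The median log2 fold change of this list was 0.06, and 4 of the 9 fold changes were negative. Of 7 B and plasma cell markers 5 rose and 0 fell, and the other 2 fold changes were negative, down to -0.87. The granzymes, targets of the family, are counted with the leukocyte granule enzymes below. The part of these cells in the Serpinb9 results was not tested.

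Serpinb2 encodes plasminogen activator inhibitor 2, which blocks Plau and is made by macrophages and epithelium under stress. Its first RefSeq start lies at the end of the stretch chr1:107511173-107511422 (GRCm38.p6, plus strand, 250 bases). It is shown because it holds a TATA box 29 to 24 bases before the start, in capitals, a motif found in 12.4% of 32851 mouse promoters. The other capitals are a CCAAT box on the reverse strand (ATTGG as printed) 210 to 206 bases before the start, found in 33.8% of promoters. Counted from a later RefSeq start of this gene, the same TATA box lies 116 to 111 bases upstream.
Serpinb2 promoter: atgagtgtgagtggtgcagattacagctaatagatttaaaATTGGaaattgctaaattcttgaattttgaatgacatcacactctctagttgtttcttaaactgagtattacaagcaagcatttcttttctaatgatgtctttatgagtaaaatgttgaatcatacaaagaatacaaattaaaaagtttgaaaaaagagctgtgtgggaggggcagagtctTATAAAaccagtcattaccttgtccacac
Matches of this kind describe the letters and were not tied to any binding.

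Serpinb2 read 4.76, 4.81, 4.79, 4.52 and 4.48 in normoxia and 4.49, 4.43, 4.38, 4.38 and 4.41 in hypoxia. The hypoxia arrays were tightly grouped below N1 to N4, and H1 was just above N5. The mean level of Serpinb2 over all arrays was 4.54, the lowest of the members. The array medians over all probe sets were 7.69 to 7.73. Whether a signal this low stood above background was not tested, so the fall in level is uncertain as a fall in transcript. The difference was -0.26 (SE 0.08), 0.837-fold, with an adjusted p of 0.0464 by limma. The call held only without N5 among the single arrays left out, and without any 1 of the other 9 arrays the adjusted p ran from 0.0559 to 0.115. After quantile normalization it was 0.0617.

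The other clade B genes did not pass. Serpinb6a, an intracellular inhibitor of cathepsin G and trypsin-like proteases and the clade B probe set with the highest mean, read 11.27, 11.48, 11.15, 11.21 and 11.17 in normoxia and 11.37, 11.39, 11.36, 11.21 and 11.17 in hypoxia. The groups lay over each other, with a difference of 0.04 (95% interval -0.12 to 0.21). Its relatives Serpinb6b and Serpinb6c gave 0.01 and -0.10. Serpinb8, an inhibitor of furin-like proteases, gave 0.17 (SE 0.07, adjusted p 0.105). Serpinb7 and Serpinb11 gave -0.09 and -0.21, and Serpinb11 passed only without N5 (-0.31, adjusted p 0.0206).

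Serpinb5 encodes maspin, a serpin of basal and squamous epithelium that does not inhibit proteases. It was chosen for mention after its values were seen. N2 read 6.66 while the other normoxia arrays were at 5.96 to 6.08 and the hypoxia arrays at 5.84 to 6.05. The difference was -0.20 (SE 0.11, adjusted p 0.254), and its other probe sets gave -0.38 and -0.16. N2 was also highest in the list of 7 basal and squamous markers, with a mean of 7.67 against 6.42 to 6.56 on the other normoxia arrays and 6.35 to 6.44 in hypoxia. On N2 the keratins Krt5, Krt13 and Krt4 read 9.40, 8.28 and 9.76, against at most 7.53, 5.39 and 7.08 on the other 9 arrays. These 3 carried the list mean. The basal markers Trp63 and Krt14 read 6.22 and 6.12 on N2, against up to 6.13 and 6.22 on the other arrays, and Krt6a and Sprr1a were also as high on another array. None of these 7 markers passed limma's test, 0 had an unadjusted p below 0.05, and SAM called 1 lower. The part of such epithelium in the Serpinb5 values was not tested.

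**Figure D2:**
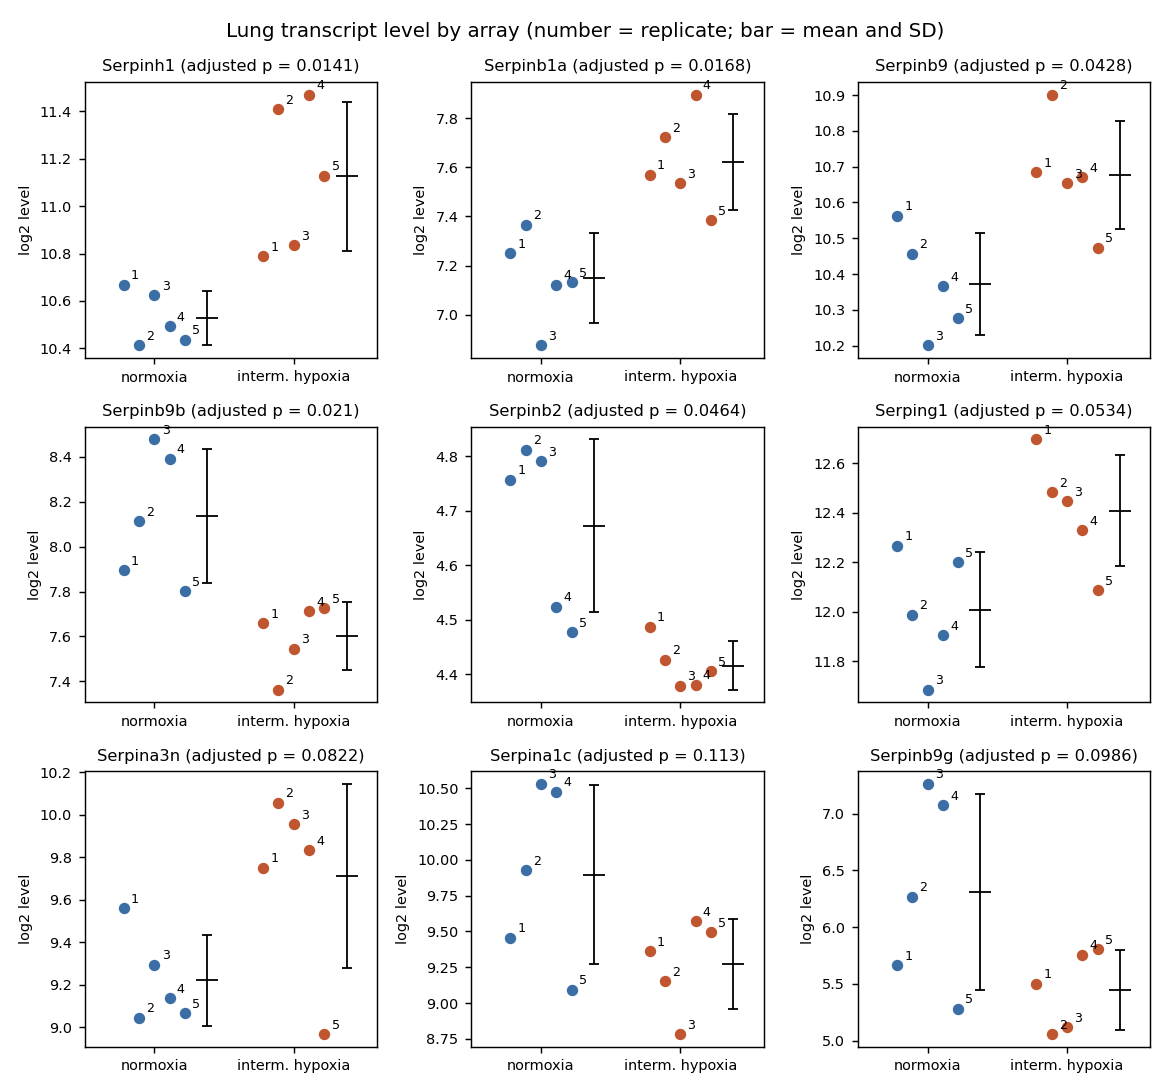
Log2 level (vertical axis) of 9 members on each of the 5 normoxia arrays (blue) and 5 intermittent hypoxia arrays (red), numbered by replicate, with the mean and SD of each group as a black bar. The groups are separate for Serpinh1, Serpinb1a and Serpinb9b, and N2, N3 and N4 lie above all other arrays for Serpina1c and Serpinb9g.

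In clades C and D, the plasma inhibitors of thrombin, neither gene passed. Serpinc1, antithrombin, read 5.52, 5.48, 5.35, 5.47 and 5.58 in normoxia and 5.80, 6.08, 5.35, 5.81 and 5.73 in hypoxia. H3 was among the lowest arrays, and the other 4 hypoxia arrays were above all normoxia arrays. The difference was 0.28 (SE 0.11, adjusted p 0.107), and without H3 it was 0.38 with an adjusted p of 0.0260. Antithrombin is made mostly in liver, and H3 was also lowest in the mean of 11 liver and plasma protein genes, 6.50 against 6.82 to 7.51 on the other hypoxia arrays and 6.63 to 6.94 in normoxia. Alb read 7.29 on H3 and 8.28 to 9.62 on the other hypoxia arrays. In that list 1 gene, Ttr, rose and 0 fell, and 7 had an unadjusted p below 0.05 by limma. The 11 fold changes ran from -0.88 to 1.48, and 3 were negative. The part of liver-type transcripts in the Serpinc1 values was not tested. Serpind1, heparin cofactor II, read 6.49, 6.58, 6.38, 6.30 and 6.52 in normoxia and 6.48, 6.59, 6.54, 6.46 and 6.37 in hypoxia. The groups overlapped fully, and the difference was 0.03 (95% interval -0.12 to 0.18).

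Clade F held the neighbours Serpinf1 and Serpinf2, and neither passed. Serpinf1 encodes pigment epithelium-derived factor, a serpin that restrains vessel growth and inhibits no protease. Its brighter probe set read 9.33, 9.44, 9.39, 9.41 and 9.29 in normoxia and 9.22, 9.08, 9.30, 9.26 and 9.34 in hypoxia, a difference of -0.14 (SE 0.06, adjusted p 0.167). Its second probe set went the other way at 0.28 (SE 0.10, adjusted p 0.0834). Serpinf1 therefore had no settled direction on this array. Serpinf2, the main plasma inhibitor of plasmin, read 6.62, 7.01, 6.91, 6.85 and 6.95 in normoxia and 6.84, 6.95, 6.73, 6.75 and 6.80 in hypoxia. N1 was lowest of all and the groups overlapped. The difference was -0.05 (95% interval -0.23 to 0.12).

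Serping1, the only clade G gene, encodes C1 inhibitor, which blocks the first complement proteases and plasma kallikrein. It read 12.27, 11.99, 11.68, 11.91 and 12.20 in normoxia and 12.70, 12.48, 12.44, 12.33 and 12.09 in hypoxia. H1 to H4 were above every normoxia array, and H5 lay below N1 and N5. The difference was 0.40 (SE 0.12), 1.32-fold, and the adjusted p of 0.0534 by limma just missed the threshold. It passed without N1, N5 or H5 (adjusted p 0.0306, 0.0310 and 0.0236). Without any other single array the adjusted p was 0.0755 to 0.129. Of 8 other settings that kept all arrays it passed in 5. Quantile normalization reduced it to 0.23 with an adjusted p of 0.109. Without N2, N3 and N4 together it was 0.18.

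Serpinh1, the only clade H gene, had the largest rise of the 34 genes. It encodes HSP47, a chaperone of the endoplasmic reticulum that binds newly made procollagen and inhibits no protease. The stretch before its start (chr7:99353240-99353489, GRCm38.p6, minus strand, 250 bases, printed along the gene) is shown because this gene rose most. It holds the core of a hypoxia response element, ACGTG, on the reverse strand (CACGT as printed, in capitals) 171 to 167 bases before the start, and a GC box GGGCGG 37 to 32 bases before it, also in capitals. The core was found in 16.6% of all mouse promoters on either strand and the GC box in 32.7%, and the heat shock element GAANNTTC, found in 6.69%, was not in this window.
Serpinh1 promoter: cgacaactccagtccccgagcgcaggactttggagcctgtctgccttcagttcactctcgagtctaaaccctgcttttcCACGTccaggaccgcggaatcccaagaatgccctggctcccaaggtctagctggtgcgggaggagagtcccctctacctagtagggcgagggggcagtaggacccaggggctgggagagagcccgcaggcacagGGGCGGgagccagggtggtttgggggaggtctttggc
Of the stretch 63.6% was G or C, against 46% to 47.6% for Serpinb9b and Serpinb9 and 32.4% for Serpinb2.

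Serpinh1 read 10.67, 10.41, 10.62, 10.49 and 10.44 on N1 to N5 and 10.79, 11.41, 10.83, 11.47 and 11.13 on H1 to H5. All hypoxia arrays were above all normoxia arrays, with H2 and H4 highest and H1 and H3 close to the normoxia range. The mean rose from 10.53 ± 0.11 to 11.13 ± 0.32, a difference of 0.60 (SE 0.13, 95% interval 0.32 to 0.88) or 1.51-fold, with an adjusted p of 0.0141 by limma. It passed with each array left out in turn, with adjusted p up to 0.0415. The second probe set gave 0.55 (SE 0.14, adjusted p 0.0272), with groups that overlapped. After quantile normalization the difference was 0.45 and the adjusted p 0.0563, and without N2, N3 and N4 it was 0.57 with an adjusted p of 0.292.

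Of 16 genes for other procollagen chaperones, modifying enzymes and processing factors, 6 rose and 1 fell, with a median log2 fold change of 0.17, or 0.08 without N2, N3 and N4. Pcolce2 and Pcolce, enhancers of the removal of the procollagen end piece, rose by 0.76 and 0.48. Crtap and Ppib, parts of the prolyl 3-hydroxylase complex, rose by 0.43 and 0.41. Kdelr3, a receptor that returns proteins to the endoplasmic reticulum, rose by 0.41, and P4hb, a subunit of prolyl 4-hydroxylase, by 0.31. Plod1, a lysyl hydroxylase, fell by 0.24, and Plod2 and Plod3 gave 0.06 and -0.02. The differences of Ppib and P4hb without N2, N3 and N4 were 0.18 and 0.12, those of Pcolce2, Pcolce, Crtap and Kdelr3 were 0.56, 0.33, 0.29 and 0.47, and Plod2 and Plod3 turned to -0.11 and 0.01. Crtap, Kdelr3, Pcolce and Pcolce2 passed with each array left out in turn. Ppib lost its call without N2, N3, N4, H1, H2, H3 or H4, as did P4hb, and Plod1 without N2, N3, N4, H1, H2, H3 or H5, with adjusted p up to 0.0903, 0.106 and 0.111.

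Fibroblasts are a main source of procollagen in the lung. Of 11 fibroblast markers 6 rose and 0 fell, with Col1a1 at 0.80 and Col3a1 at 0.78 (0.54 and 0.44 without N2, N3 and N4), and the list means were 10.26 to 10.60 in normoxia and 10.62 to 10.87 in hypoxia. The defining gene Pdgfra gave -0.14 (adjusted p 0.370) and Tcf21 -0.06 (adjusted p 0.750). The part of fibroblast number in the Serpinh1 result was not tested.

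Clade I, serpins named for neuroserpin, did not pass in either gene. Serpini1, neuroserpin, an inhibitor of Plat, read 6.36, 6.20, 6.14, 6.28 and 6.19 in normoxia and 6.01, 6.16, 6.07, 6.17 and 6.26 in hypoxia. The difference was -0.10 (95% interval -0.25 to 0.05). Serpini2 read 4.91, 4.88, 5.03, 5.02 and 4.93 in normoxia and 4.71, 4.90, 5.02, 4.84 and 4.93 in hypoxia. H1 was the lowest array, the groups otherwise overlapped, and the difference was -0.08 (95% interval -0.22 to 0.07).

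**Figure D3:**
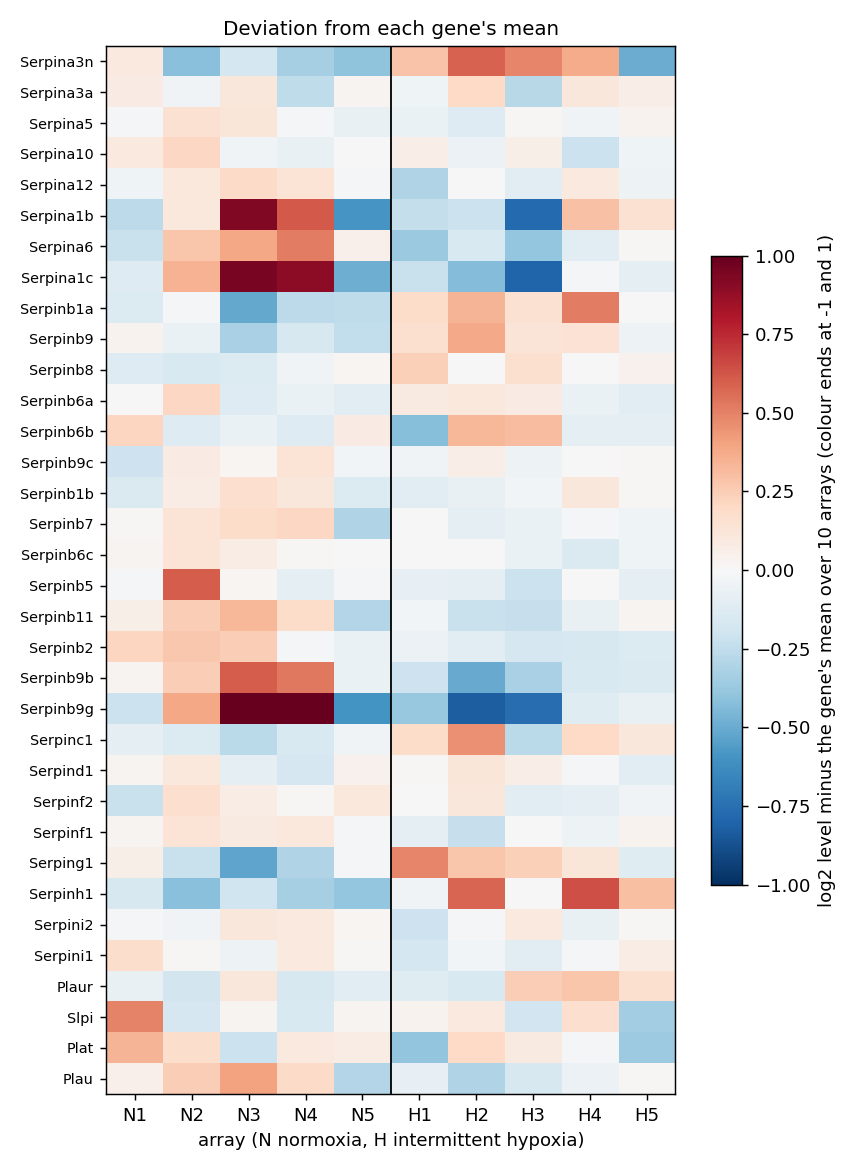
Deviation of each of the 34 genes (rows, by clade) from its own mean on each array (columns, N normoxia and H intermittent hypoxia), in log2 units with colour ending at -1 and 1. Serpinb9g, Serpina1c and Serpina1b are highest on N3 and N4, and the N2 cell of Serpinb5 stands out from the other arrays.

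None of the plasminogen activators, their receptor or Slpi passed limma's adjusted test. Unadjusted p was below 0.05 for 0 of the 4, and SAM called 0. Plat, tissue plasminogen activator, read 9.32, 9.16, 8.77, 9.08 and 9.06 in normoxia and 8.59, 9.19, 9.08, 8.97 and 8.63 in hypoxia. H1 and H5 were the lowest arrays, and the difference was -0.19 (95% interval -0.47 to 0.09), or -0.30 without N2, N3 and N4. Plau, urokinase, read 5.63, 5.82, 5.98, 5.77 and 5.29 in normoxia and 5.49, 5.27, 5.42, 5.51 and 5.58 in hypoxia. N1 to N4 were above all hypoxia arrays and N5 was near the bottom. The difference was -0.24 (SE 0.11, adjusted p 0.165). It passed without N5 (-0.34, adjusted p 0.0186) and was 0.00027 without N2, N3 and N4, and its second probe set gave -0.01.

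Plaur read 9.26, 9.15, 9.45, 9.17 and 9.23 in normoxia and 9.22, 9.18, 9.58, 9.61 and 9.50 in hypoxia. H3, H4 and H5 were above all normoxia arrays, H1 and H2 were not, and the difference was 0.16 (95% interval -0.04 to 0.37). Slpi read 10.51, 9.84, 10.04, 9.86 and 10.03 in normoxia and 10.05, 10.11, 9.82, 10.18 and 9.66 in hypoxia. N1 was the highest array, the groups overlapped, and the difference was -0.09 (95% interval -0.38 to 0.19), or -0.31 without N2, N3 and N4.

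The other genes of the systems on which serpins act were counted in 7 lists, without the members. Over 128 genes 16 rose and 4 fell (12.5% and 3.12%), against 8.93% and 3.60% of all genes. Of the 128, 62 had a mean at or above the median level of all probe sets. Among all genes at or above that level 13.6% rose and 3.00% fell, and among those below it 2.42% and 4.43%. The median log2 fold change of the 128 genes was 0.04, and 0.03 without N2, N3 and N4. In the plasminogen system, counted without the members, 4 of 8 genes rose and 0 fell. All 8 fold changes were positive, and the median was 0.27, or 0.19 without N2, N3 and N4. Of the members of this system, Plat, Plau, Serpinf2 and Serpinb2 gave -0.19, -0.24, -0.05 and -0.26, and Plaur gave 0.16. Among these members only Serpinb2 passed, as lower. Thbs1, thrombospondin 1, a matrix protein that binds plasminogen, read 9.62, 8.41, 9.67, 9.23 and 9.68 in normoxia and 10.85, 10.07, 10.70, 10.44 and 10.79 in hypoxia, and rose by 1.25 (SE 0.23, adjusted p 0.00845 by limma). The groups did not overlap. Plgrkt, S100a10 and Anxa2, which hold plasminogen at the cell surface, rose by 0.40, 0.42 and 0.33 (adjusted p 0.0159, 0.0442 and 0.0371). These 3 differences were 0.22, 0.19 and 0.20 without N2, N3 and N4, and that of Thbs1 was 0.92. Thbs1 and Plgrkt passed with each array left out, while S100a10 and Anxa2 lost their calls without N2, N3, N4, H1, H2, H3 or H4, with adjusted p up to 0.112 and 0.0933. Plg, the zymogen itself, gave 0.13 (adjusted p 0.312).

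In coagulation 1 of 25 genes passed limma's adjusted test, 11 had an unadjusted p below 0.05, and 13 fold changes were negative. SAM called 3 higher and 7 lower. Fgg, a fibrinogen chain, rose by 0.43 (adjusted p 0.0464), a call lost without N2, N3, N4, N5, H1, H2 or H4 with adjusted p up to 0.112. The median was -0.05. In the complement list 0 of 9 genes passed limma's adjusted test, 4 had an unadjusted p below 0.05, and SAM called 2 higher and 2 lower. Its smallest p values belonged to Cfi, complement factor I, at -0.45 (adjusted p 0.0607), and C1qc, a chain of C1q, at 0.38 (adjusted p 0.0660). They were -0.09 and 0.25 without N2, N3 and N4, and the list median went from 0.07 to -0.0039. These are genes of the cascade that C1 inhibitor controls.

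The list of granule enzymes of neutrophils, mast cells and lymphocytes holds serine proteases, some of them targets of Serpinb1a, Serpinb9, Slpi and antitrypsin, and also the peroxidase Mpo and the carboxypeptidase Cpa3, which are not. Of its 17 genes 0 passed limma's adjusted test. An unadjusted p below 0.05 was found for 7 of them, Mpo included, SAM called 0 higher and 7 lower, and the median was -0.11. The median turned to 0.07 without N2, N3 and N4, so the list had no settled direction. The smallest p values were those of the mast cell proteases Mcpt2 and Mcpt4, at -0.31 and -0.21 (adjusted p 0.0710 and 0.103). Elane, neutrophil elastase, gave -0.18 and Ctsg, cathepsin G, gave -0.20. Without those 3 arrays the 4 differences were -0.06, -0.07, -0.15 and -0.10.

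Of 21 membrane serine proteases, kallikreins and HTRA proteases 2 rose and 1 fell. Tmprss2, an epithelial surface protease, rose by 0.37 (adjusted p 0.0194), Htra1, a secreted matrix protease, by 0.42 (adjusted p 0.0360), and the kallikrein Klk11 fell by 0.43 (adjusted p 0.0125). Klk11 passed with each array left out, Tmprss2 lost its call without N3 or N4, and Htra1 without N2, N3, N4, H1, H2 or H3, with adjusted p up to 0.0560 and 0.0919. Tmprss2, Htra1 and Klk11 gave 0.22, 0.24 and -0.28 without N2, N3 and N4.

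Of 34 protease inhibitors that are not serpins 3 rose and 2 fell. Cst3, cystatin C, an inhibitor of cysteine cathepsins, rose by 0.52 (adjusted p 0.0211), Spint1, an inhibitor of membrane serine proteases, by 0.33 (adjusted p 0.0205), and the matrix proteoglycan Spock2 by 0.32 (adjusted p 0.0377). Itih5, a hyaluronan-binding inhibitor heavy chain, fell by 0.51 (adjusted p 0.0455), and Wfdc18, which shares its domain type with Slpi, fell by 0.46 (adjusted p 0.0450). Spint1 lost its call without N3 or N4 (adjusted p up to 0.0587), and Cst3 without N3, N4, H1, H2 or H3 (adjusted p up to 0.0562). Spock2 lost it without N2, N3, N4, H1, H2 or H3 (adjusted p up to 0.0894). Wfdc18 lost it without N2, N3, N4, H1, H2, H3 or H4 and Itih5 without N2, N4, N5, H1, H2, H4 or H5, with adjusted p up to 0.116 and 0.0939. Wfdc18, Cst3 and Spock2 gave -0.18, 0.33 and 0.20 without N2, N3 and N4, while Spint1 and Itih5 gave 0.24 and -0.52.

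**Figure D4:**
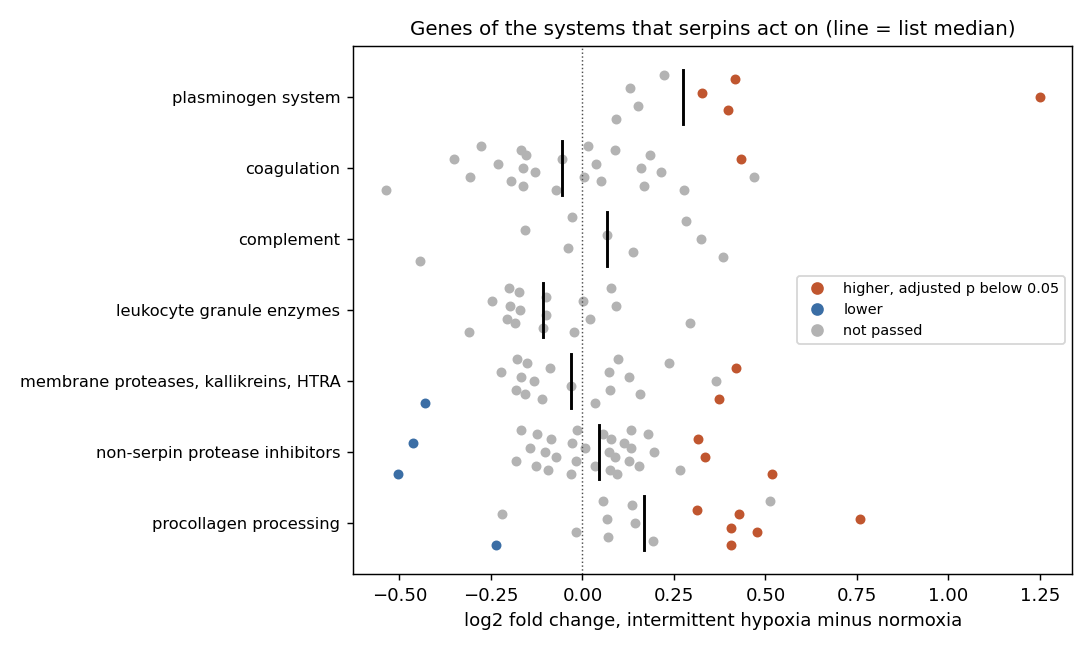
Log2 fold change (horizontal axis, hypoxia minus normoxia) of each gene in 7 lists of the systems that serpins act on, with the list median as a black line. The plasminogen list, which leaves out the members, lies to the right of 0 in all 8 genes, with Thbs1 at 1.25. The procollagen list holds 6 of the 16 genes that rose.

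By position, 9 members lie on chromosome 13, where Serpinb1a and Serpinb9 rose and Serpinb9b fell, with a median of -0.0023 and a range from -0.86 to 0.47. The 8 clade A members lie on chromosome 12, with a range from -0.62 to 0.49 and no call. Of the 6 members on chromosome 1, Serpinb2 fell. On each of these chromosomes the members had fold changes of both signs.

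Without N2, N3 and N4 together, leaving 2 arrays against 5, limma called 16 of all 22626 probe sets and none of the 34 genes, of which 4 had an unadjusted p below 0.05. With so few calls in all, the sizes rather than the calls can be compared. The differences were then 0.57 for Serpinh1, 0.43 for Serpinb1a, 0.26 for Serpinb9, -0.25 for Serpinb9b and -0.20 for Serpinb2. The 3 rises and Serpinb2 kept most of their size, and Serpinb9b did not.

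**Figure D5:**
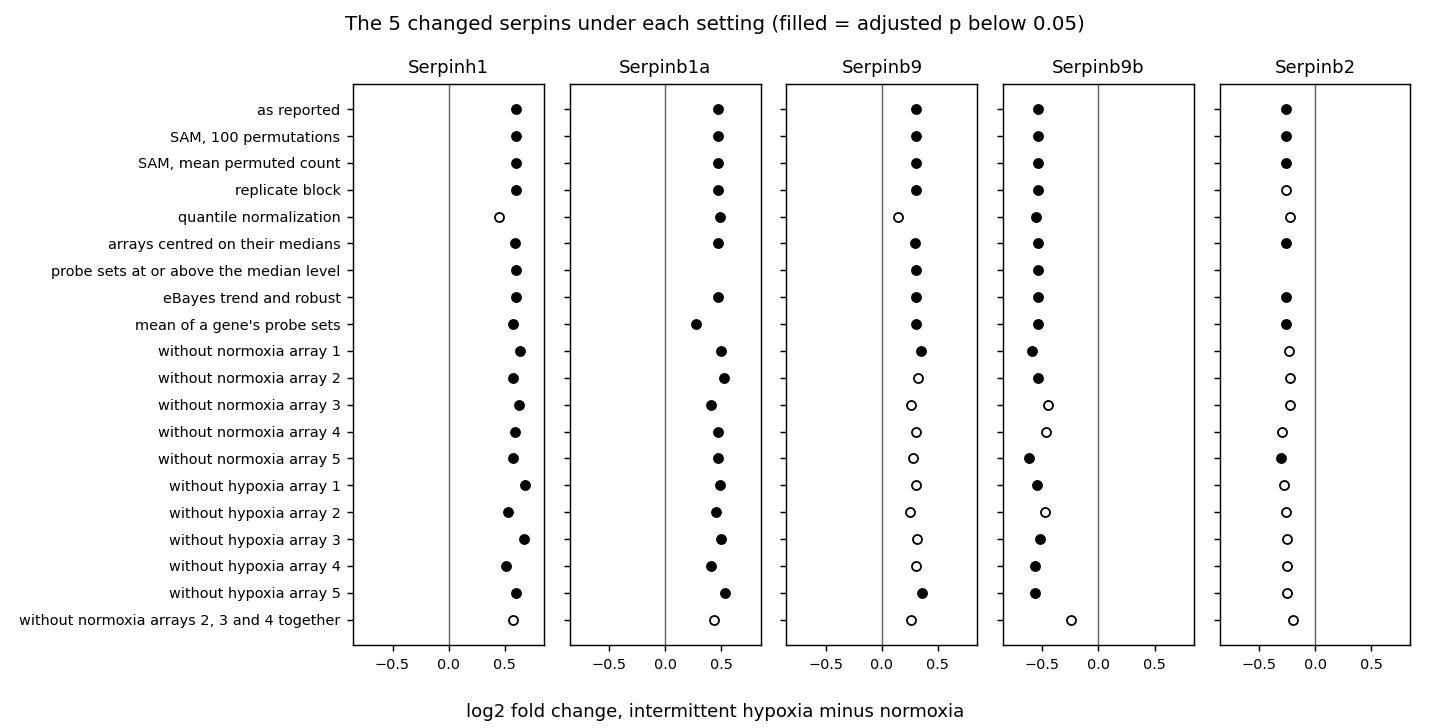
Log2 fold change (horizontal axis) of the 5 serpins that passed, under each processing setting (vertical axis), filled where the adjusted p was below 0.05. All points of a gene lie on 1 side of 0. Serpinb1a is filled in every setting that gave it a value except the one without N2, N3 and N4 (it and Serpinb2 fell under the level filter), and Serpinb9 and Serpinb2 are open in most settings that leave out 1 array.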

How the data were processed

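Whole lung RNA of 10 mice was measured on 10 arrays, 5 per group, each animal counted as 1 replicate, so p-values reflect the spread between animals. The authors deposited 1 log2 level per probe set and array. Per the submitters' processing notes the tools were RMA and affy, with versions not given in the sources used here. How the arrays were normalized is uncertain, since their SDs differ. Probe sets were named from the platform annotation, which gave 1 symbol for 20380, several for 691 and none for 1555. All 34 members were found in the RefSeq gene table (GRCm38.p6), and promoters were printed for 4 of the 5 that passed.

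The comparison used lmFit and eBayes of limma 3.58.1 in R 4.3.3, two-sided, over all 22626 probe sets without a filter, at an adjusted p of 0.05. Intervals are 95%. The number of arrays limits the precision. The code was tested on simulated data. Alternatives were SAM with 100 permutations, a replicate block, quantile normalization, median centring, a filter on dim probe sets (mean under the array-wide median), trended and robust eBayes, averaging all probe sets of a gene, and leaving out arrays. Values per array were given for members that passed, for the highest and the 2 smallest p in each clade, and for Plau, Plat, Plaur, Slpi, Serpinh1, Serping1 and Serpinf1. From each list the genes that passed were named, or otherwise the 2 with the smallest p. The members and lists were chosen with earlier results of these data known.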

Additional observations from a re-analysis of the deposited data

Results flagged for a closer look

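Serpina3n on H5 stood far from the rest of its group, at 8.97 while H1 to H4 lay between 9.75 and 10.06, a gap of 0.719 of the group's range. Serpinb5 on N2 stood out at 6.66 while the other normoxia arrays lay between 5.96 and 6.08, a gap of 0.838 of the range. The critical value for 5 arrays is 0.71. Of 68 groups tested 2 were marked, and chance marks about 1 in 20. The values that moved with Serpinb5 on N2 are given in the report, and their part was not tested.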

How the results depend on the processing

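Of the 34 genes, 3 rose and 2 fell. SAM called 7 and 7 (with the mean permuted count, added after seeing the data, 5 and 3), quantile normalization 1 and 1, the replicate block 3 and 1 (Serpinb2 at an adjusted p of 0.0668), and the filter left 1 lower. Leaving out 1 array gave 2 to 5 higher and 0 to 7 lower, and leaving out N2, N3 and N4 gave 0 and 0. Of the partner genes 16 rose and 4 fell, SAM called 28 and 27 (mean count 17 and 10), the block 12 and 1, leaving out 1 array 6 to 22 and 1 to 11, and leaving out N2, N3 and N4 0 and 0. Over all probe sets 2699 changed, against 7801 by SAM, 4521 with the mean count, 1755 with the block, 1003 to 4800 without 1 array and 16 without those 3. Of the changed probe sets 71.2% were higher, and 59.1% after quantile normalization. SAM estimated that 46.8% of probe sets did not change.

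Each array's deviations from its group mean were taken over all probe sets. Between same-numbered arrays these deviations correlated at -0.24 to 0.22, and 4 of 10 arrays correlated best with their own number. These mixed values cannot settle whether the numbers pair the animals. The main comparison used no pairing, and the replicate block is given above.

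Signs turned for genes that had not passed. Without N2, N3 and N4 the fold changes were 0.00027 for Plau, 0.27 for Serpina1b, -0.043 for Serpina3a, 0.0086 for Serpina5, 0.011 for Serpinb11, 0.12 for Serpinb1b, -0.14 for Serpinb6b, 0.097 for Serpinb7, 0.12 for Serpinb9c, -0.019 for Serpind1 and 0.030 for Serpinf2. Quantile normalization gave 0.013 for Serpinb1b, -0.11 for Serpinb6a, -0.11 for Serpinb6b and 0.052 for Serpinb9c, and the mean of its probe sets gave 0.072 for Serpinf1. Leaving out 1 array gave -0.035 to 0.098 for Serpina3a, -0.073 to 0.0059 for Serpinb1b, -0.068 to 0.12 for Serpinb6b, -0.055 to 0.033 for Serpinb9c, -0.0055 to 0.064 for Serpind1 and -0.15 to 0.021 for Slpi. The cause was not tested.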
